A study of Mus musculus with 78 samples.

Results

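Interferon response genes were followed in the mouse kidney as a set of 37 genes, chosen by symbol from a list of genes that interferon is known to induce or that carry its signal. All 37 were present among the 24499 genes of the count tables, and all 37 passed the filter on low counts in every fit, out of 14280 genes tested after a single dose and 14614 after 5 daily doses. They fall into 11 roles: IFIT proteins, Isg15 and its protease, Mx proteins, the OAS family, RNA sensors, transcription factors, IRG GTPases, GBP GTPases, class I antigen processing, a chemokine, and other antiviral or induced genes.

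Messenger RNA was sequenced from pulverized kidney of male C57BL/6J mice, an inbred strain, in a study of whether fatty liver disease alters the kidney effects of tetrachloroethylene (PERC), a dry-cleaning and degreasing solvent. Over 8 weeks, the feed held 4% fat in the low-fat group (LFD), 31% fat in the high-fat group (HFD), or was short of methionine, folate and choline (MCD). PERC at 300 mg/kg in Alkamuls-EL620 and saline, or vehicle, was then given either once or on 5 days in a row. Kidneys were taken 24 h after a single dose of PERC and 4 h after the last of the repeated doses; neither the ages nor when single-regimen vehicle mice were killed is given in the sources used here. The libraries used for LFD, HFD and MCD were 5, 4 and 3 with vehicle and 4, 5 and 4 with PERC after a single dose. After 5 doses they were 7, 8 and 7 with vehicle and 9, 8 and 8 with PERC.

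Interferons are secreted proteins that signal through cell-surface receptors, JAK kinases and STAT proteins. Type I interferon acts mainly through the interferon-stimulated response element (ISRE) in DNA, which a complex with STAT2 and IRF9 binds, while interferon gamma acts mainly through the gamma-activated site (GAS). Most induced genes block virus replication, degrade foreign RNA, attack intracellular microbes or raise the display of peptides to T cells, and many have a steady low level in uninfected tissue.

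The sequences below are the RefSeq promoters (GRCm38.p6) of the GTPase genes Igtp and Irgm2, which were among the genes lower after 5 doses of PERC, of the ubiquitin-like modifier gene Isg15, and of the synthetase genes Oas1a and Oas3. After 5 doses, Oas1a was higher on HFD and on MCD with either treatment, and Oas3 passed on HFD only among libraries given PERC. Each run covers 110 to 5 bases before the start site, 5′ to 3′ on the gene's strand, and capitals mark matches to the ISRE core GAAANNGAAA (overlapping matches run together) or to the GAS pattern TTCNNNGAA. The runs lie at chr11:58199446-58199551 (Igtp, plus strand), chr11:58214867-58214972 (Irgm2, plus), chr4:156200823-156200928 (Isg15, minus), chr5:120777664-120777769 (Oas3, minus) and chr5:120907530-120907635 (Oas1a, minus). None covers an annotated exon in gencode vM21.
Igtp: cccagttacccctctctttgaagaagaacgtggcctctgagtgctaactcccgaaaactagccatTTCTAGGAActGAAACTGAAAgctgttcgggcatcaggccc
Irgm2: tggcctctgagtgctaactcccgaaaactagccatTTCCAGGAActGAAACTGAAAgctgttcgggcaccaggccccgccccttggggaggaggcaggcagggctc
Isg15: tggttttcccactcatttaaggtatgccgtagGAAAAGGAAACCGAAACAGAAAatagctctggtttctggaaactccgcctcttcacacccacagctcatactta
Oas3: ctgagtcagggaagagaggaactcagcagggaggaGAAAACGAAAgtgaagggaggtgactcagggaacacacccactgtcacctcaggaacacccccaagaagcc
Oas1a: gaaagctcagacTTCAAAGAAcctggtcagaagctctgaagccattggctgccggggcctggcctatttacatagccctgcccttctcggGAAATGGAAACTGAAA
The Igtp and Irgm2 promoters held a GAS pattern and an ISRE core at the same spacing, the ISRE core starting 34 bases before the start site of Igtp and 64 before that of Irgm2. With the 2 runs shifted by 30 bases, 74 of 76 bases were identical. The Isg15 promoter held 3 overlapping ISRE cores, from 78, 72 and 66 bases before the start, and the Oas1a promoter held 2, from 20 and 14 bases before it.

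Promoters of 30 of the 37 genes were in the RefSeq table, in 34 entries that run from 250 bases before to 50 after a start. The ISRE core, on either strand, was found for 18 of the 30 genes, in 18 of their 34 entries, and in 3.44% of all 32851 promoters. The GAS pattern was found for 9 genes and in 8.3% of all promoters, a share by promoter and not by gene. Both patterns stood in 1 promoter of Oas1a, Bst2, Igtp, Irgm2 and Gbp7, and in 0.454% of all promoters. In Bst2 the 2 patterns overlapped. Usp18, Mx1, Mx2, Oas2, Ifi27, Rtp4 and Parp14 had no promoter in the table. A match describes letters in a window and is not a measured binding site.

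**Figure D1:**
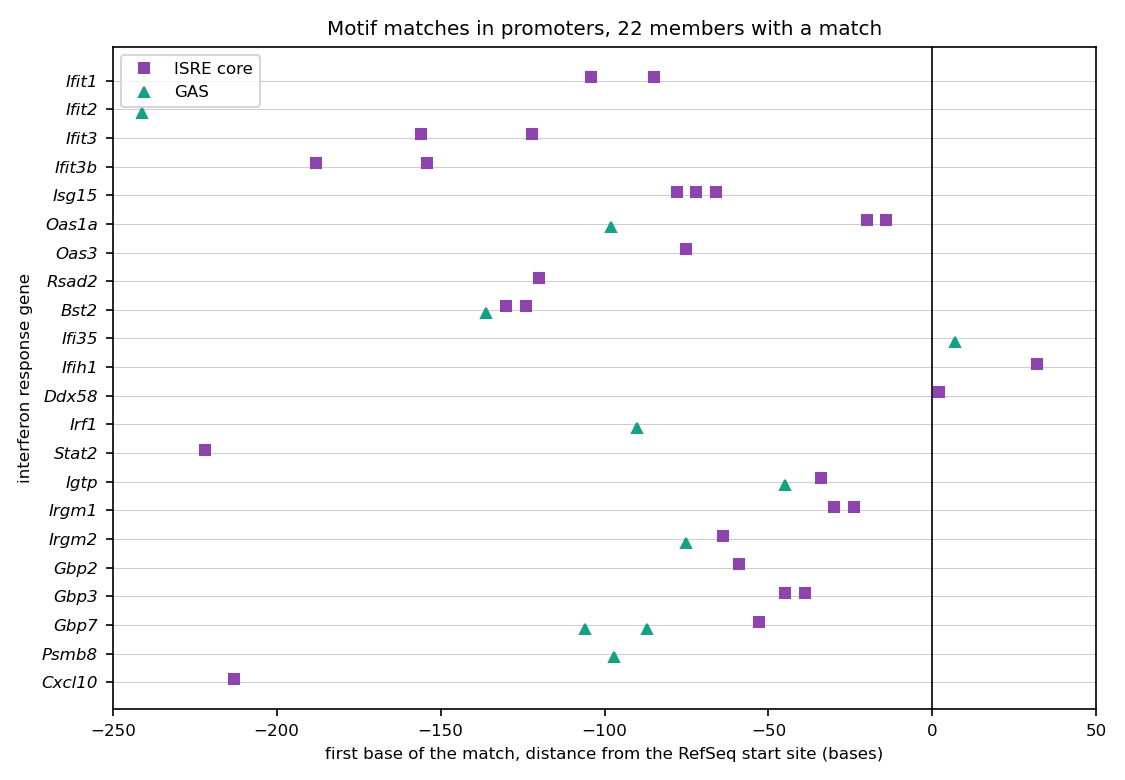
Positions of ISRE core matches (squares) and GAS matches (triangles) in the promoters of the genes with a match. The horizontal axis gives the first base of each match in bases from the RefSeq start site, and each row is 1 gene; in Igtp and Irgm2 the triangle and the square stand at the same distance from each other.

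The levels of these genes in the kidney were low to moderate. Per kilobase of exon, in counts per 1000000 counts in genes (CPM), the mean of the 7 LFD vehicle libraries of the repeated regimen was highest for Ifi27, the gene of a small hydrophobic interferon-induced protein, at 16 CPM per kb. The IRG GTPase genes Irgm1, Igtp and Irgm2, whose proteins act on membranes around intracellular microbes, stood at 14.4, 12.3 and 10.8 CPM per kb. The lowest were Oas3 at 0.0764, Mx1 at 0.293 and Mx2 at 0.351 CPM per kb. In C57BL/6 mice Mx1 carries a known deletion and gives no working antiviral protein, so its transcript is a readout of induction only. Of the 37 genes, 33 had over 10 counts in every library, and those with 10 or fewer in some library were Mx1, Mx2, Oas1a and Oas3.

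Some levels are uncertain because genes share sequence. Of the annotated 50-base stretches, 57.6% of those of Oas1a also occur in Oas1g, 51.2% of those of Ifit3 in Ifit3b, and 11.8% of those of Igtp in Irgm2, with which it shares exon bases. Psmb8 and Ifi35 overlap genes on the other strand over 14.7% and 16.8% of their exon bases, and no source used here gives the strand setting of the counting.

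The tissue label was checked with marker genes. The proximal tubule genes Slc34a1 and Lrp2 had counts in all 72 libraries, with medians of 4580 and 3040 CPM. In these bulk libraries, fewer cells of a type and less RNA per cell cannot be told apart. Interferon genes themselves were near or at the floor: of 21 ligand genes, 0 passed the filter, 13 had no count in any of the 72 libraries (which allows up to 0.00258 CPM over all libraries, for counting error only), and the highest median was 0.0725 CPM, for Ifng. The markers of plasmacytoid dendritic cells, which are known as strong producers of type I interferon, had medians of 0.401 CPM for Siglech, 0.375 CPM for Ccr9 and 0.704 CPM for Cox6a2. Replicate 4 of the LFD group labelled as given 5 doses of PERC resembled vehicle for genes that respond to PERC. It had 121 CPM of Cyp4a14, against 890 to 7410 in the other 8 PERC and 56.6 to 182 in the 7 vehicle libraries. Counts of calls for PERC on LFD, for PERC over the diets and for the diets with PERC are given with and without it. Levels, fold changes and marker sums include it unless stated. Without it, the differences of the repeated PERC effect from LFD, or from the single regimen on LFD, called 0 interferon response genes.

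Levels of several of these genes differed with diet. In vehicle libraries of the repeated regimen, 5 of the 37 genes were higher on HFD than on LFD and 0 lower: Oas2, Ifi27, Oas1a, Oasl2 and Ddx58 (edgeR quasi-likelihood test, adjusted p under 0.05 over all genes; 3.86% of all genes tested were higher). On MCD, 6 were higher and 0 lower: Oasl2, Oas2, Ifi27, Oas1a, Mx1 and Rtp4 (2.11% of all genes were higher). Both diets were set against the same 7 LFD vehicle libraries. The median log2 fold change of the 37 genes was 0.11 on HFD and 0.22 on MCD, against 0.00 and -0.01 over all genes. By role, 3 of 5 OAS family genes were higher on each diet, while 0 of 3 IRG GTPases, 0 of 3 GBP GTPases, 0 of 3 antigen processing genes and 0 of 4 IFIT genes passed on either. The HFD count was 1 without LFD vehicle replicate 3 (Oas2), 2 without LFD vehicle replicate 7, and 3 without LFD vehicle replicate 6 or HFD vehicle replicate 2, 3 or 7. Within the 5 lanes all 11 of these differences kept their direction.

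**Figure D2:**
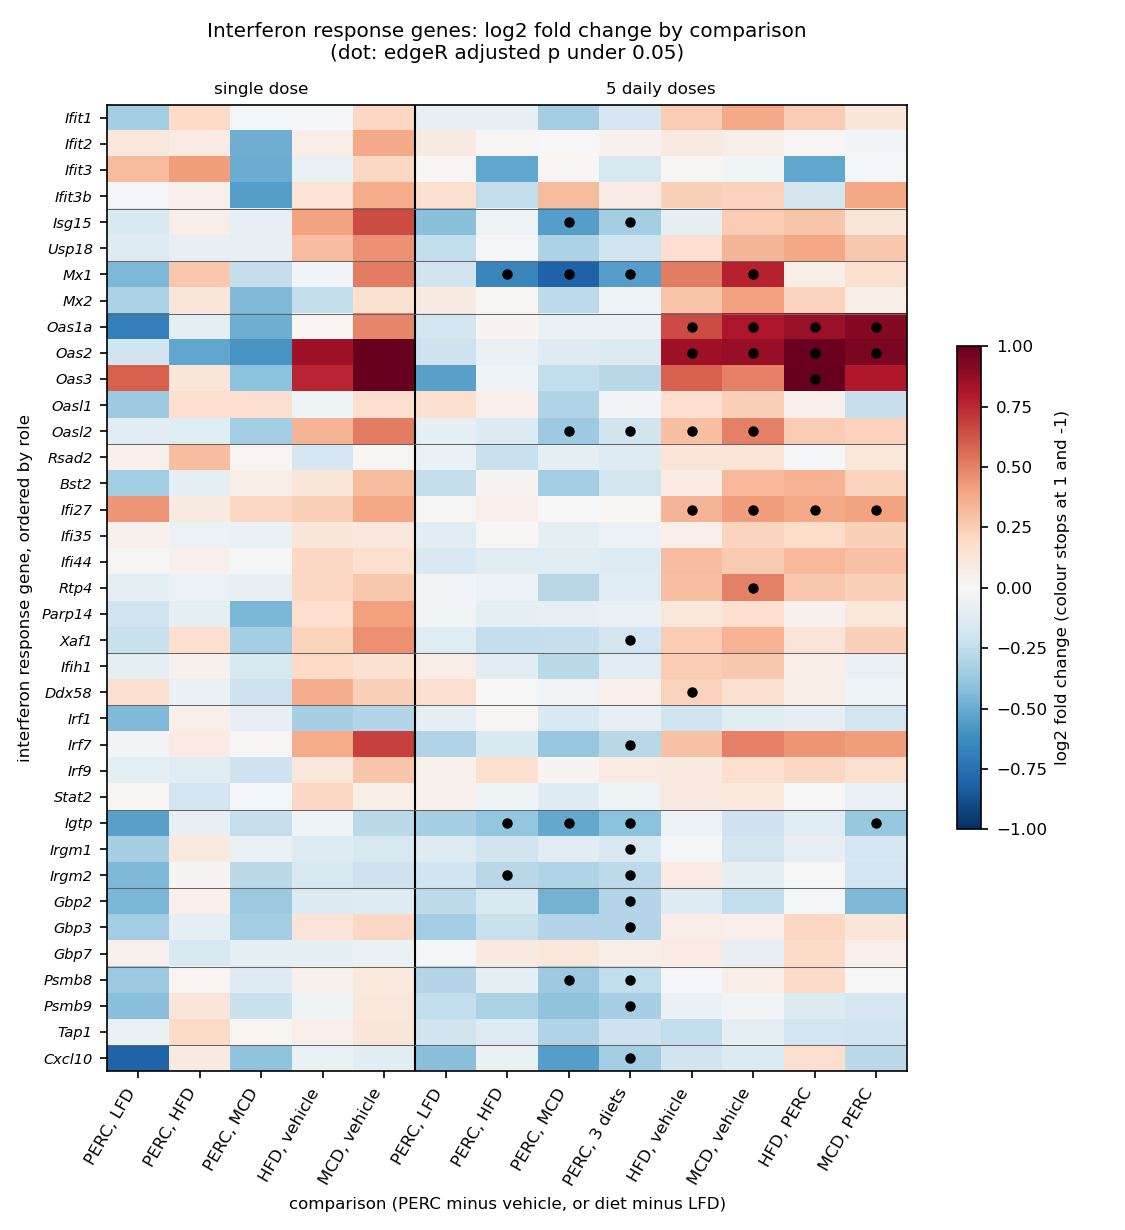
Log2 fold change of the 37 interferon response genes (rows, ordered by role) in 13 comparisons (columns), from the edgeR fits of each regimen; black dots mark an adjusted p under 0.05. Dots in the diet columns stand mostly on Oas1a, Oas2 and Ifi27, and those in the PERC columns after 5 doses on Igtp, Mx1 and 11 other genes, all lower.

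Oas2 codes for a synthetase that senses double-stranded RNA and makes the messenger that activates RNase L. In the repeated regimen its lowest, median and highest levels with vehicle were 1.84, 2.91 and 4.43 CPM on LFD, 3.91, 5.2 and 7.94 CPM on HFD, and 3.73, 5.87 and 6.91 CPM on MCD. The ranges overlapped only through the highest LFD library. The log2 fold change was 0.85 on HFD (SE 0.18, edgeR adjusted p = 0.00137) and 0.87 on MCD (SE 0.18, adjusted p = 0.00255), which is 1.8-fold and 1.83-fold.

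The mice given 5 doses of PERC are a separate set of libraries, and this comparison was added after values had been seen. There Oas2 had a lowest, median and highest level of 1.12, 2.74 and 3.36 CPM on LFD, 4.25, 4.72 and 6.56 CPM on HFD, and 4.46, 4.65 and 6.26 CPM on MCD. Neither HFD nor MCD overlapped LFD. The log2 fold changes were 0.99 for HFD (SE 0.17, edgeR adjusted p = 0.000111) and 0.94 for MCD (SE 0.17, adjusted p = 0.000311). The calls of Oas2 in these 4 comparisons were kept whichever library was left out. Within the 5 sequencing lanes, each of which held all 6 groups, the Oas2 difference ran from 0.22 to 1.64 for HFD with vehicle and from 0.39 to 1.78 for MCD with vehicle.

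In the single regimen Oas2 did not pass. Its vehicle values were 3.06, 3.22, 3.77, 4.13 and 4.47 CPM in the 5 LFD libraries, 6.11, 6.42, 6.73 and 7.66 CPM in the 4 HFD libraries, and 5.9, 7.15 and 10.1 CPM in the 3 MCD libraries. The log2 fold changes were 0.85 (SE 0.23, edgeR adjusted p = 0.0632) and 1.05 (SE 0.25, adjusted p = 0.0572). Oas2 was called in both with DESeq2, with lane as a covariate and with the 5 libraries of low depth kept. With PERC the single-regimen values were 0.53 (SE 0.24, adjusted p = 0.287) for HFD and 0.65 (SE 0.25, adjusted p = 0.252) for MCD.

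Oas1a, which codes for another RNA-activated synthetase, had vehicle levels of 1.12, 1.25 and 1.65 CPM (lowest, median, highest) on LFD in the repeated regimen, 1.61, 1.82 and 3.29 CPM on HFD, and 1.79, 2.3 and 2.97 CPM on MCD. All MCD libraries lay above all LFD libraries, and HFD overlapped LFD at the edge. The log2 fold changes were 0.65 (SE 0.19, edgeR adjusted p = 0.0251) and 0.81 (SE 0.19, adjusted p = 0.00859) with vehicle, and 0.86 and 0.92 (SE 0.18 each, adjusted p = 0.00142 and 0.000858) with PERC. Without HFD vehicle replicate 7 the first of these had an adjusted p of 0.0824. Oas1g, which shares most of its sequence, was also higher on HFD with vehicle (1.29, SE 0.32, adjusted p = 0.00861), and reads of this pair cannot be told apart where they are identical. After a single dose, the log2 fold changes of Oas1a with vehicle were 0.02 (SE 0.31) on HFD and 0.49 (SE 0.32) on MCD, and neither passed (adjusted p = 0.998 and 1).

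Oas3, the third synthetase gene of the cluster on chromosome 5, was the gene with the lowest level per kilobase. With 5 doses of PERC its lowest, median and highest levels were 0.115, 0.317 and 0.561 CPM on LFD, 0.468, 0.814 and 1.2 CPM on HFD, and 0.244, 0.632 and 0.993 CPM on MCD. It was higher on HFD (log2 1.09, SE 0.31, edgeR adjusted p = 0.023) but did not pass on MCD (0.80, SE 0.32, adjusted p = 0.148) or with vehicle (0.59, SE 0.31, adjusted p = 0.266 on HFD). The fewest counts in a library were 1, in the LFD PERC group. Without HFD PERC replicate 7 its adjusted p was 0.0694. The 3 genes lie at chromosome 5, 120730333 to 120749853 (Oas2), 120753098 to 120777661 (Oas3) and 120896256 to 120907521 (Oas1a), all on the minus strand of GRCm38.

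**Figure D3:**
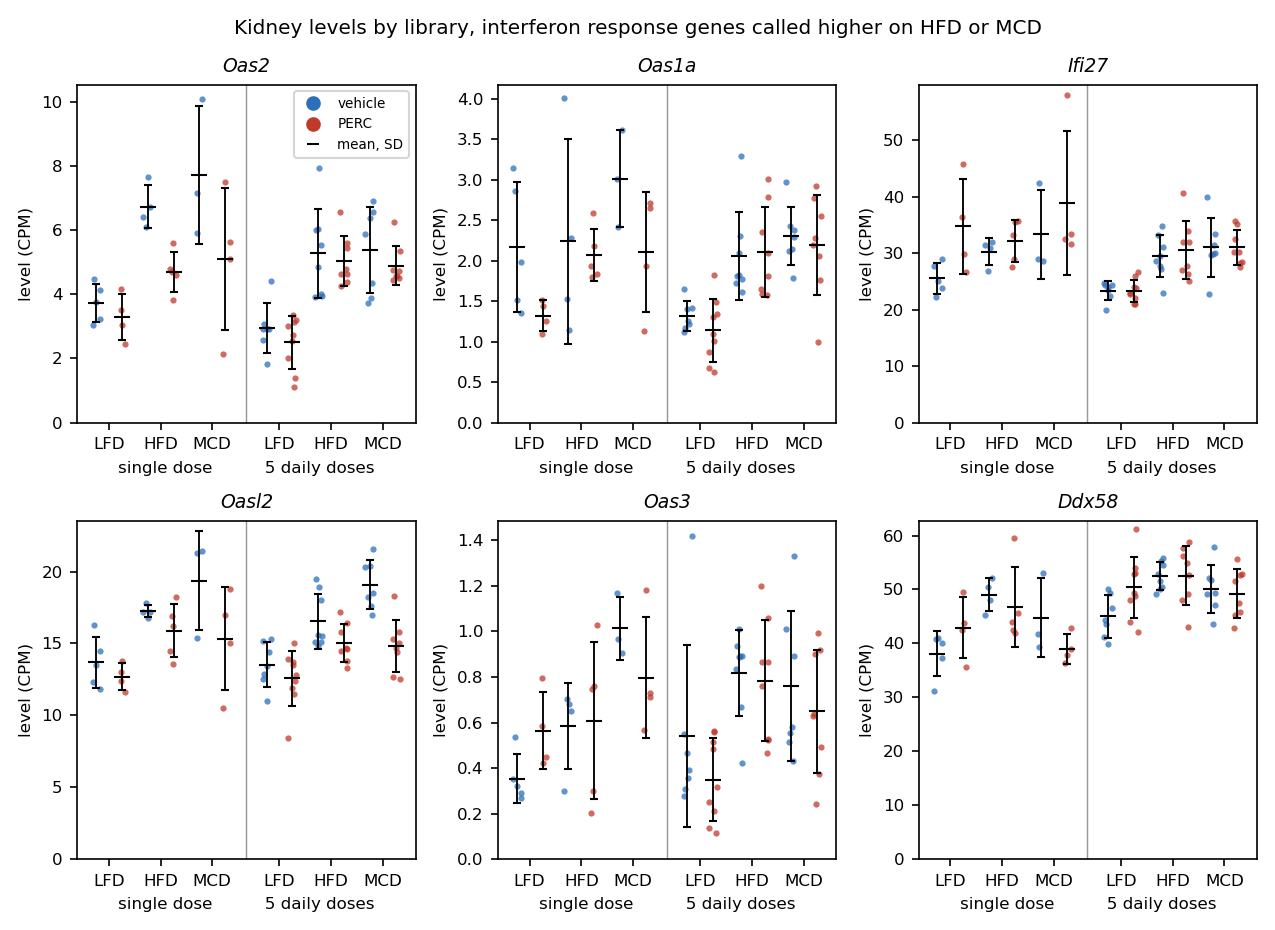
Levels in CPM (vertical axis, from 0) of 6 genes in each library, by diet and regimen; blue points are vehicle and red points PERC libraries, and bars show the mean and SD of each group. In the repeated regimen the Oas2 points of HFD and MCD lie above nearly all LFD points with vehicle and above all of them with PERC.

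Ifi27 was higher on both diets with either treatment after 5 doses. Its vehicle levels were 19.9, 24.1 and 24.7 CPM (lowest, median, highest) on LFD, 22.9, 29.2 and 34.9 CPM on HFD, and 22.7, 30.1 and 40 CPM on MCD. In each of the HFD and MCD groups 1 library lay within the LFD range and the others above it. The log2 fold changes were 0.34 and 0.42 with vehicle (SE 0.09 each, edgeR adjusted p = 0.0151 and 0.00507) and 0.38 and 0.40 with PERC (SE 0.09 each, adjusted p = 0.00267 and 0.00211). Without LFD vehicle replicate 3 the HFD value with vehicle had an adjusted p of 0.0538.

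Oasl2, an OAS-like gene whose product carries ubiquitin-like domains, had vehicle levels of 11, 13.4 and 15.3 CPM on LFD, 14.8, 15.6 and 19.5 CPM on HFD, and 17, 18.5 and 21.6 CPM on MCD. The MCD libraries did not overlap the LFD libraries. The log2 fold change was 0.50 on MCD (SE 0.09, edgeR adjusted p = 0.000495, kept whichever library was left out) and 0.30 on HFD (SE 0.09, adjusted p = 0.0336, and 0.0953 without LFD vehicle replicate 7). With PERC the values were 0.25 on HFD (SE 0.08, adjusted p = 0.0679) and 0.23 on MCD (SE 0.09, adjusted p = 0.101).

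Ddx58, the gene of the RNA sensor RIG-I, was higher on HFD with vehicle (log2 0.23, SE 0.07, edgeR adjusted p = 0.0405), at 39.9, 44.3 and 50.1 CPM on LFD and 49.2, 52.2 and 55.9 CPM on HFD (lowest, median, highest). Its adjusted p was 0.146 without LFD vehicle replicate 6. Mx1 was higher on MCD with vehicle (0.77, SE 0.20, adjusted p = 0.0223), at 0.86, 1.01 and 1.48 CPM on LFD and 1.39, 2.02 and 2.32 CPM on MCD, and Rtp4, an interferon-induced receptor transporter gene, was higher by 0.50 (SE 0.15, adjusted p = 0.043). Those adjusted p-values were 0.0601 without MCD vehicle replicate 3 and 0.12 without LFD vehicle replicate 4. The groups of each of these genes overlapped at the edges.

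In the PERC libraries of the repeated regimen, 4 of the 37 genes were higher on HFD (Oas2, Oas1a, Ifi27 and Oas3; 3.02% of all genes were higher) and 0 lower. On MCD, 3 were higher (Oas2, Oas1a and Ifi27; 2.43% of all genes) and 1 lower, Igtp (log2 -0.38, SE 0.12, edgeR adjusted p = 0.0426; 3.36% of all genes were lower). Without LFD PERC replicate 4, the counts were 5 on HFD, with Usp18 added, and 3 on MCD, where Igtp had an adjusted p of 0.0757. With lane as a covariate 8 were higher on HFD, and 7 without LFD PERC replicate 3 or 9. The percentages above are for the main fit. Over all genes and in either direction, leaving out single libraries gave 736 to 1064 calls on HFD, against 891 with all libraries. On MCD it gave 690 to 1040, against 846. The Igtp call on MCD was lost in 9 of 17 fits that left out a library, with an adjusted p of up to 0.101 (without MCD PERC replicate 7).

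After a single dose no diet comparison called any of the 37 genes. With vehicle, 0 passed on HFD (1.64% of all genes tested were called) and 0 on MCD (0.476%), with 6 and 10 at an unadjusted p under 0.05 and 1 called by DESeq2 in each. Besides Oas2, those with the smallest p were Ddx58 (0.36, SE 0.12, edgeR adjusted p = 0.143) and Irf1 (-0.33, SE 0.13, adjusted p = 0.297) on HFD, and Oas3 (1.55, SE 0.38, adjusted p = 0.0789) and Oasl2 (0.51, SE 0.15, adjusted p = 0.199) on MCD. With PERC, 0 passed on HFD (2.68% of all genes) and 0 on MCD (0.91%), with 11 and 9 at an unadjusted p under 0.05 and 3 and 1 called by DESeq2. The percentages here are shares of all genes at an adjusted p under 0.05. The share at an unadjusted p under 0.05 is not given, so the unadjusted counts have no share to be read against. There the 3 smallest p-values belonged to Xaf1, Cxcl10 and Isg15 on HFD (0.61, 0.82 and 0.61; adjusted p = 0.0702, 0.0731 and 0.0791) and to Isg15, Oasl1 and Ifit1 on MCD (0.73, 0.70 and 0.54; adjusted p = 0.0761, 0.112 and 0.156). Cxcl10 passed on HFD without LFD PERC replicate 3 or 5, and Oas2 on MCD without MCD PERC replicate 1.

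Some leukocyte and fat cell markers were higher on these diets too, beside 3.86% of all genes on HFD and 2.11% on MCD. Of 8 macrophage markers, 1 was higher on HFD with vehicle after 5 doses (Lyz2, log2 0.43, SE 0.14) and 2 on MCD (Lyz2, 0.64, SE 0.14; Cd14, 0.65, SE 0.15). Their summed level was 154 ± 6.36 CPM (SD, up to 165) in the 7 LFD, 151 to 187 CPM in the 8 HFD and 171 to 233 CPM in the 7 MCD vehicle libraries. Of 3 pan-leukocyte markers 0 and 1 were higher (Laptm5 on MCD, 0.46, SE 0.13), with sums of 27.3 to 40.4, 36.8 to 48.1 and 41 to 52.1 CPM. Of 5 adipocyte markers 4 and 2 were higher, with sums of 1.12 to 19.2, 1.61 to 30.6 and 5.52 to 35 CPM. With PERC, 1 of 8 macrophage markers (Cd14) was higher on each diet, and 2 of 3 pan-leukocyte markers were higher on HFD and 0 on MCD, beside 3.02% and 2.43% of all genes. The part of these cells in the diet differences was not tested.

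Of the neighbouring pathway lists, 3 of 42 further interferon-induced genes were higher on HFD with vehicle after 5 doses, namely Ly6e, Oas1g and Ifi27l2a, and 1 lower, Znfx1, while 3.86% of all genes were higher and 2.78% lower. On MCD 4 were higher, against 2.11% of all genes: Ly6e (log2 0.71, SE 0.12), Ifi27l2a (1.11, SE 0.23), Ddx60 (0.51, SE 0.15) and Ifitm3 (0.40, SE 0.09). Ly6e, which codes for a membrane-anchored antiviral factor, was also called in the single regimen, at 0.64 on HFD (SE 0.14, edgeR adjusted p = 0.0185) and 0.70 on MCD (SE 0.16, adjusted p = 0.0374). In that regimen Oas1c, an OAS gene of the same list, was called in the other direction. It was lower on HFD with vehicle (-0.89, SE 0.19, edgeR adjusted p = 0.0136). Of 20 nucleic acid sensing genes 1 was higher on HFD (Tmem173, the gene of STING, 0.40, SE 0.11) and 2 on MCD (Tmem173, 0.40, SE 0.11; Dhx58, 0.51, SE 0.15). Of 13 receptor and JAK-STAT genes 0 were called on HFD and 1 was higher on MCD, the type I receptor gene Ifnar2 (0.23, SE 0.06). Of 13 class I presentation genes, B2m was higher (0.29, SE 0.09) and Tapbpl lower (-0.29, SE 0.09) on HFD, and 0 were called on MCD. The 1 of 20 sensing genes and 1 of 13 class I genes higher on HFD are single genes beside the share over all genes.

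After 5 daily doses of PERC, all calls in this set were lower. Averaged over the 3 diets, 13 of the 37 genes were lower after 5 doses and 0 higher (edgeR, adjusted p under 0.05; 11.7% of all genes tested were lower). The median log2 fold change of the 37 was -0.15 against 0.00 over all genes, and 6 of them had a value above 0. All 3 IRG GTPases were lower, as were 2 of 3 GBP GTPases, 2 of 3 antigen processing genes and the chemokine, and 0 of 4 IFIT genes and 0 of 2 RNA sensors passed. These comparisons use the same vehicle libraries as the diet comparisons above. Leaving out single libraries gave 10 to 17 calls, and without LFD PERC replicate 4 there were 14, with Usp18 added. Over all genes and in either direction, leaving out single libraries gave 3347 to 3991 calls, against 3579 with all libraries. Within lanes, 8 of the 13 averaged differences were negative in 5 of 5 lanes, 4 in 4 lanes (Isg15, Mx1, Oasl2 and Xaf1) and Psmb9 in 3.

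Igtp had the smallest p. Its lowest, median and highest levels on LFD were 18.8, 24.9 and 31.5 CPM with vehicle and 15, 18.2 and 24.1 CPM with PERC. On HFD they were 20.1, 24.1 and 27.6 CPM with vehicle and 12, 18.8 and 23 CPM with PERC, and on MCD 18.3, 21.1 and 25.3 CPM with vehicle and 11.3, 14.7 and 19.9 CPM with PERC. In each diet the PERC libraries were shifted down and overlapped the lower vehicle libraries. The log2 fold change was -0.41 over the diets (SE 0.07, edgeR adjusted p = 1.15e-05, 24.8% lower by the fit), -0.39 on HFD (SE 0.12, adjusted p = 0.0269), -0.51 on MCD (SE 0.12, adjusted p = 0.00832) and -0.33 on LFD (SE 0.12, adjusted p = 0.0781, not passing). Within lanes the averaged difference ran from -0.69 to -0.28, negative in 5 of 5.

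Irgm2, whose exons overlap those of Igtp, fell by 0.26 on the log2 scale over the diets (SE 0.05, edgeR adjusted p = 0.000253). Its medians with vehicle and PERC were 39.3 and 35.2 CPM on LFD, 41.2 and 35.3 CPM on HFD, and 37.3 and 30.6 CPM on MCD. Irgm1, on another part of chromosome 11, had a value of -0.15 (SE 0.05, adjusted p = 0.0359), and its adjusted p was 0.0603 without LFD vehicle replicate 2. The GBP genes Gbp3 and Gbp2, for GTPases that assemble on microbes in the cell, fell by 0.29 on the log2 scale each (SE 0.08 and 0.10, adjusted p = 0.00425 and 0.0279).

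Mx1 fell by 0.55 on the log2 scale over the diets (SE 0.12, edgeR adjusted p = 0.000325). Its lowest, median and highest levels with vehicle and with PERC on MCD were 1.39, 2.02 and 2.32 against 0.636, 1.12 and 1.55 CPM. On HFD the vehicle libraries averaged 1.61 ± 0.327 CPM (SD, n = 8), from 1.23 CPM up, and the PERC libraries had a lowest, median and highest level of 0.523, 1.03 and 1.48 CPM. On LFD the lowest, median and highest levels were 0.86, 1.01 and 1.48 CPM with vehicle and 0.505, 1.07 and 1.47 CPM with PERC, so the medians lay close together and the PERC libraries reached lower. The log2 fold change was -0.66 on HFD (SE 0.20, adjusted p = 0.0297), -0.81 on MCD (SE 0.20, adjusted p = 0.0108) and -0.20 on LFD (SE 0.21, adjusted p = 0.648). The difference between the MCD and LFD effects was -0.61 (SE 0.29) and did not pass (adjusted p = 0.757).

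Isg15, which codes for a ubiquitin-like protein that is attached to other proteins, fell by 0.34 on the log2 scale (SE 0.09, edgeR adjusted p = 0.0053). Its medians with vehicle and PERC were 2.63 and 2.22 CPM on LFD, 2.35 and 2.54 CPM on HFD, and 3.13 and 2.25 CPM on MCD. Oasl2 fell by 0.20 (SE 0.05, adjusted p = 0.00245) and Irf7, a transcription factor that drives type I interferon genes, by 0.28 (SE 0.09, adjusted p = 0.02). The immunoproteasome genes Psmb8 and Psmb9, whose subunits shape peptides for class I display, fell by 0.25 and 0.33 (SE 0.06 and 0.09, adjusted p = 0.00267 and 0.00682), and Cxcl10, the gene of a T cell attractant, fell by 0.35 (SE 0.12, adjusted p = 0.0297). The adjusted p of Cxcl10 was 0.0564 without LFD vehicle replicate 1. The remaining call, Xaf1, was at -0.19 (SE 0.07, adjusted p = 0.0442) and was lost in 26 of 47 fits that left out a library. Tap1, the peptide transporter gene, was at -0.21 (SE 0.09, adjusted p = 0.079) and did not pass.

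**Figure D4:**
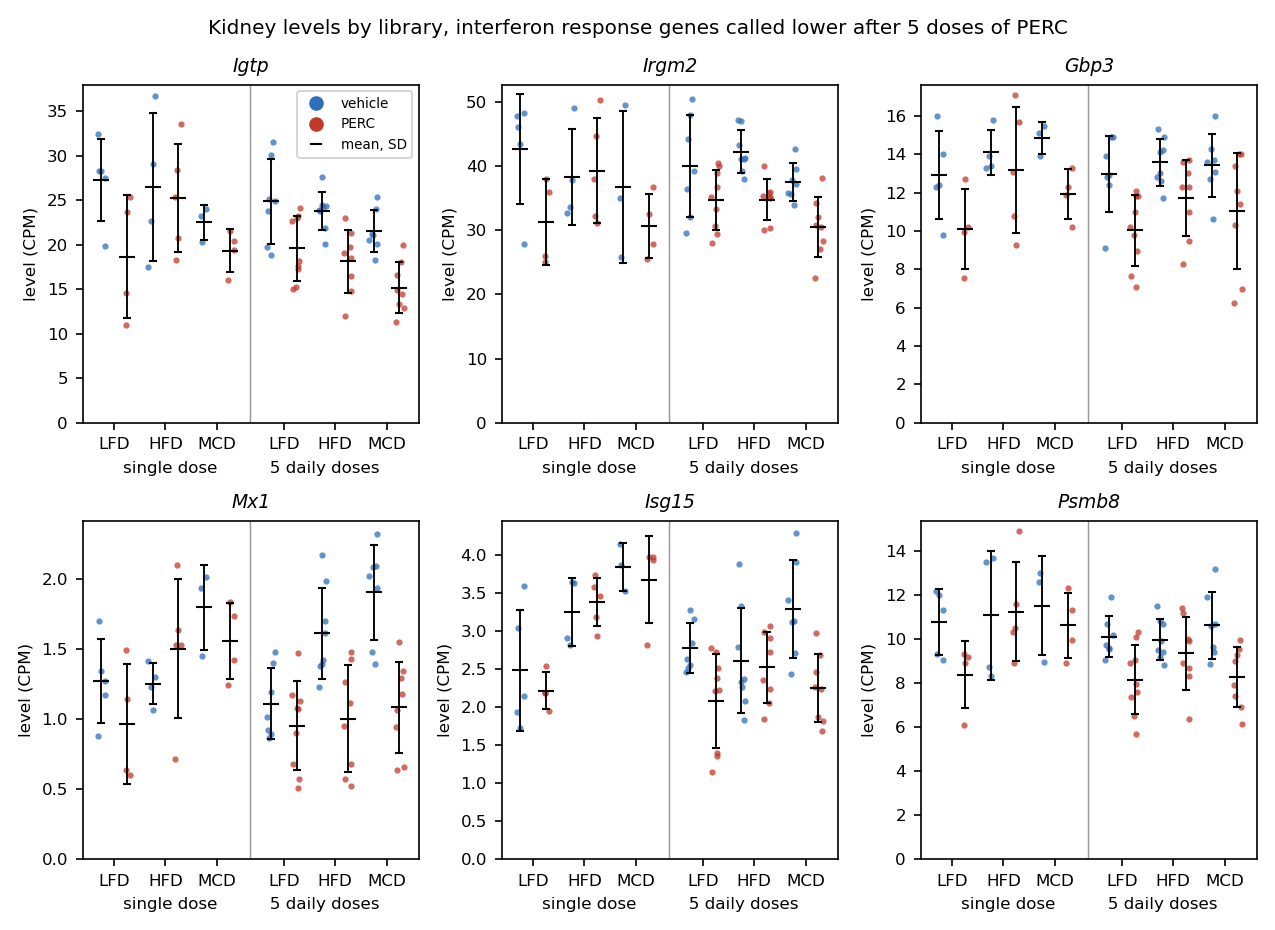
Levels in CPM (vertical axis, from 0) of 6 genes in each library, by diet and regimen; blue points are vehicle and red points PERC libraries, and bars show the mean and SD of each group. After 5 doses the PERC points of Igtp are shifted below the vehicle points in each diet but overlap them, with medians of 18.2 against 24.9 CPM on LFD, 18.8 against 24.1 on HFD and 14.7 against 21.1 on MCD.

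Within single diets the calls were fewer. On LFD 0 of the 37 passed after 5 doses (6.91% of all genes were called), with 7 at an unadjusted p under 0.05 and 0 called by DESeq2; the smallest p-values belonged to Igtp, Gbp3 (-0.35, SE 0.13, edgeR adjusted p = 0.0932) and Psmb8 (-0.29, SE 0.11, adjusted p = 0.0946). Without LFD PERC replicate 4, which lay with vehicle, 3 passed: Igtp and Psmb8 lower and Ddx58 higher. There were 2 without PERC replicate 9 and 1 without vehicle replicate 6 or 7. The 6.91% is not the share for these fits. Over all genes, leaving out single libraries gave 640 to 1798 calls on LFD, against 1010 with all libraries. On HFD 3 were lower (Igtp, Mx1 and Irgm2, the last at -0.28, SE 0.09, adjusted p = 0.0452; 4.22% of all genes were lower), but 0 passed without PERC replicate 1 or 6, and 1 without PERC replicate 7 or vehicle replicate 1, 5 or 6. On MCD 5 were lower (2.38% of all genes): Igtp, Mx1, Oasl2 (-0.36, SE 0.09, adjusted p = 0.00863), Isg15 (-0.55, SE 0.16, adjusted p = 0.0379) and Psmb8 (-0.36, SE 0.11, adjusted p = 0.0482). With lane as a covariate Isg15 and Psmb8 did not pass on MCD (edgeR adjusted p = 0.0594 and 0.0649). The first 3 were kept whichever MCD library was left out, and only these passed without vehicle replicate 2, 3 or 7 or PERC replicate 6 or 7.

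A direct test of whether the PERC effect differed between diets called 0 of the 37 genes after 5 doses for HFD against LFD (0.0137% of all genes were called) and 0 for MCD against LFD (0%), with 0 and 5 at an unadjusted p under 0.05 and 0 called by DESeq2 in both. For HFD the smallest p-values belonged to Ifit3 (-0.53, SE 0.30), Ddx58 (-0.17, SE 0.10) and Isg15 (0.36, SE 0.23), with an edgeR adjusted p of 0.92 each. For MCD they belonged to Ifih1, the gene of the RNA sensor MDA5 (-0.34, SE 0.13, adjusted p = 0.584), Oasl2 (-0.27, SE 0.13, adjusted p = 0.75) and Mx1. The same difference for Oas2 was 0.14 for HFD and 0.07 for MCD (SE 0.25 each, adjusted p = 0.959 and 0.994). For Ifit3, HFD vehicle replicate 3 stood at 44.8 CPM, against 8.65 to 23.2 CPM in the other libraries of that group.

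Some leukocyte markers were called after 5 doses of PERC, where 11.7% of all genes were lower and 12.8% higher. Csf1r, the macrophage growth factor receptor gene, fell by 0.53 on the log2 scale over the diets (SE 0.06) and Cd14 rose by 0.37 (SE 0.08), which makes 1 of 8 macrophage markers lower and 1 higher, shares near those over all genes. Summed macrophage markers were 154 ± 6.36 CPM with vehicle (SD, up to 165) and 97.2 to 161 with PERC on LFD, 151 to 187 and 119 to 178 on HFD, and 171 to 233 with vehicle and at most 160 with PERC on MCD. Csf1r had the highest median of the 8 markers over the 72 libraries, at 85.6 CPM, against 22.6 CPM for the next, Lyz2. It therefore weighs most in these sums, here and in the diet comparisons. Of 5 T cell markers tested 2 were lower (Cd8a, -0.35, SE 0.13; Cd28, -0.48, SE 0.18), with sums of 3.79 to 6.6 CPM with vehicle and 2.3 to 5.29 with PERC on LFD, 3.38 to 6.2 and 2.09 to 5.97 on HFD, and 4.47 to 6.71 and 1.89 to 5.36 on MCD. Of 3 pan-leukocyte markers 1 was lower (Ptprc, -0.29, SE 0.07), with sums of 27.3 to 40.4 against 22 to 39.6 CPM on LFD, 36.8 to 48.1 against 26.8 to 44.7 on HFD, and 41 to 52.1 against 32.3 to 43.8 on MCD. Of 5 adipocyte markers 3 were higher and of 3 neutrophil markers tested 2 were higher (S100a8 and S100a9, 1.37 each, SE 0.31 and 0.30). Ly6g, a defining neutrophil marker, had 0 counts in all but 8 of the 72 libraries. The part of these cells in the lower interferon response genes was not tested.

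Pathway genes outside the set were called in both directions after 5 doses of PERC, beside the 11.7% of all genes that were lower and the 12.8% that were higher. Among receptor and JAK-STAT genes, the kinase gene Tyk2 (log2 -0.21, SE 0.05), the phosphatase gene Ptpn6 (-0.21, SE 0.04) and the receptor gene Il10rb (-0.12, SE 0.04) were lower. Socs3, an inhibitor of JAK signalling, was higher (0.92, SE 0.14), as was the gamma receptor gene Ifngr2 (0.11, SE 0.04). Of 42 further interferon-induced genes 15 were lower and 0 higher, among them Cxcl9 (-0.99, SE 0.20), Iigp1 (-0.54, SE 0.10), Gbp8 (-0.46, SE 0.10) and Ly6e (-0.44, SE 0.07). Of 20 nucleic acid sensing genes 2 were lower (Zbp1, -0.47, SE 0.11; Irf5, -0.28, SE 0.10) and 3 higher (Tmem173, Myd88 and Adar), shares near those over all genes. Of 13 class I presentation genes 3 were lower, among them Nlrc5, the transactivator of class I genes (-0.42, SE 0.08), and 2 were higher (Psme1 and Psme2).

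After a single dose of PERC none of the 37 genes passed in any comparison. The counts were 0 on LFD (0.749% of all genes tested were called), 0 on HFD (0.007%), 0 on MCD (0.028%) and 0 over the 3 diets (1.37%), with 8, 1, 4 and 8 at an unadjusted p under 0.05 and 0 called by DESeq2 in each. The percentages are shares at an adjusted p under 0.05, and no share of all genes is given for the unadjusted counts. On LFD, Irf1, an early transcription factor of the interferon gamma response, had values of 23.8, 26.2, 27.4, 27.4 and 29.4 CPM with vehicle and 15.3, 20.1, 20.8 and 23.1 CPM with PERC. Cxcl10 had 4.52, 4.67, 5.17, 5.63 and 7.79 CPM with vehicle and 1.9, 2.58, 3.94 and 4.2 CPM with PERC. The log2 fold changes were -0.44 for Irf1 (SE 0.13, edgeR adjusted p = 0.154) and -0.80 for Cxcl10 (SE 0.24, adjusted p = 0.17). Cxcl10 passed with lane as a covariate.

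Ifi27 followed on LFD (0.44, SE 0.17, edgeR adjusted p = 0.369). On HFD the smallest p-values belonged to Oas2 (-0.52, SE 0.23), Stat2 (-0.19, SE 0.10) and Rsad2, the gene of viperin (0.31, SE 0.17), each with an adjusted p of 1. On MCD they belonged to Parp14 (-0.46, SE 0.17), Ifit2 (-0.49, SE 0.19) and Oas2 (-0.59, SE 0.26), with adjusted p = 0.746, 0.849 and 0.936. Over the 3 diets Oas2 had a log2 fold change of -0.44 (SE 0.14, adjusted p = 0.169), Parp14 of -0.25 (SE 0.09, adjusted p = 0.245) and Gbp3 of -0.26 (SE 0.10, adjusted p = 0.288). The difference of the PERC effect from LFD called 0 genes of the set for HFD and 0 for MCD (0% of all genes in both), with 3 and 2 at an unadjusted p under 0.05 and 0 by DESeq2; the smallest p-values belonged to Irf1 (0.49, SE 0.19), Cxcl10 (0.89, SE 0.34) and Ifit1 (0.54, SE 0.23) for HFD and to Ifit2 (-0.60, SE 0.26), Ddx58 (-0.37, SE 0.18) and Ifit3 (-0.82, SE 0.41) for MCD, with adjusted p from 0.798 to 0.998.

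The effect of 5 doses was also set against that of 1 dose. None of the 37 genes passed on LFD (0.0132% of all genes were called), HFD (0.132%) or MCD (0.0132%), with 3, 4 and 2 at an unadjusted p under 0.05 and 0 called by DESeq2 in each. On HFD the log2 difference was -0.93 for Mx1 (SE 0.33, edgeR adjusted p = 0.266), -0.94 for Ifit3 (SE 0.36, adjusted p = 0.321) and -0.53 for Rsad2 (SE 0.20, adjusted p = 0.33). On LFD the smallest p-values belonged to Ifi27 (-0.44, SE 0.18), Irf1 (0.34, SE 0.14) and Oas3 (-1.15, SE 0.54), and on MCD to Ifit2 (0.49, SE 0.21), Parp14 (0.37, SE 0.18) and Ifit3b (0.87, SE 0.45). After 5 doses Ifit3b stood at 25.3 CPM in MCD PERC replicate 5, against 4.44 to 7.11 CPM in the other libraries of that group. Ifit3 stood at 44.8 CPM in HFD vehicle replicate 3, against 8.65 to 23.2 CPM in the others. Neither gene was in the gap test reported below. Each of these effects is a difference within a regimen. The regimens also differed in time, with kidneys taken 24 h after the single PERC dose and 4 h after the last of 5 doses. They shared no sequencing lane. Number of doses, time after the last dose and lane therefore cannot be told apart.

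The IFIT genes, Usp18, Bst2, Tap1, Irf1, Irf9 and Stat2 passed in no comparison. The IFIT genes code for proteins that bind foreign RNA, and after 5 doses their averaged PERC values were -0.17 for Ifit1 (SE 0.07, edgeR adjusted p = 0.0542), -0.16 for Ifit3 (SE 0.12), 0.04 for Ifit2 (SE 0.06) and 0.08 for Ifit3b (SE 0.15). In MCD PERC replicate 5 Ifit3b stood at 25.3 CPM, against 4.44 to 7.11 CPM in the other libraries of that group. Usp18, the protease gene that removes Isg15, was at -0.20 (SE 0.08, adjusted p = 0.0584), and Bst2, the gene of the virus tether tetherin, at -0.18 (SE 0.08, adjusted p = 0.0975). Irf1, Irf9 and Stat2 lay between -0.08 and 0.08. On MCD with vehicle, Ifit1 had the largest value among the IFIT genes (0.38, SE 0.12, adjusted p = 0.0607), and Irf7, called only in the averaged PERC effect, had the largest among the transcription factors (0.50, SE 0.16, adjusted p = 0.0771). Of the 37 genes, 19 were called in at least 1 comparison; Ifi35, Ifi44, Parp14, Rsad2, Gbp7, Mx2, Oasl1 and Ifih1 were also not called in any, with averaged PERC values from -0.13 to 0.06 after 5 doses.

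The genes also varied together among libraries of the same group. Deviations of log2 CPM from the group mean were correlated between each gene and the mean of the other 36 genes, as a description over libraries that share lanes and depth. All 37 had an r above 0 in both regimens, with a median of 0.396 over the 25 libraries of the single regimen and 0.349 over the 47 of the repeated one, against -0.00833 and 0.000917 for all other genes with the mean of the 37. Oasl2 and Gbp3 had the highest mean r of the 2 regimens (0.56 and 0.54 after 1 dose, 0.71 each after 5), and Ifi35 the lowest (0.06 and 0.03). Lane took an r2 of 0.0125 and 0.0862 of the mean of the 37. Of the synthetase genes, Oas2 stood at 0.50 and 0.55, while Oas1a stood at 0.30 and 0.22 and Oas3 at 0.14 and 0.41.

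**Figure D5:**
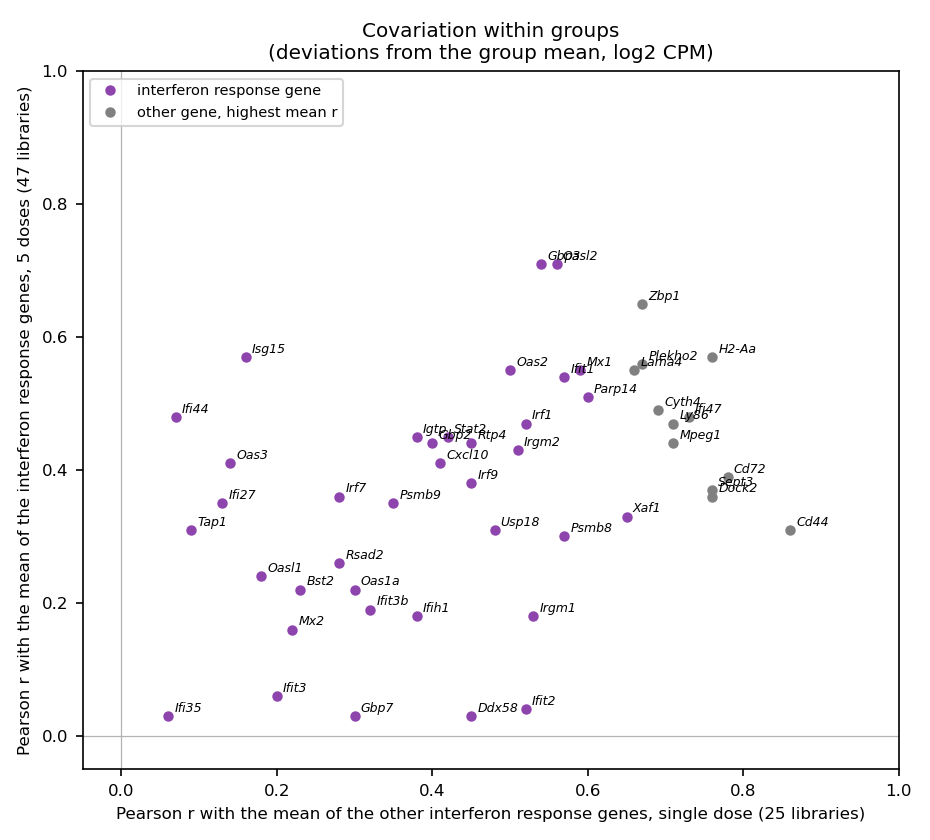
Pearson r of each gene with the mean of the other interferon response genes over deviations from the group means, after a single dose (horizontal axis, 25 libraries) and after 5 doses (vertical axis, 47 libraries); purple points are the 37 genes and grey points the 12 other genes with the highest mean r. All purple points lie above 0 on both axes, with Oasl2 and Gbp3 highest after 5 doses.

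Among genes outside the set, those that followed its mean most closely over both regimens were led by the class II gene H2-Aa (r = 0.76 and 0.57 in single and repeated dosing) and Zbp1, a sensor of left-handed nucleic acid (0.67 and 0.65). Ifi47, another IRG GTPase gene, had 0.73 and 0.48. The other 9 were Plekho2, Lama4, Cyth4, Ly86, Cd72, Cd44, Mpeg1, Sept3 and Dock2, with 0.66 to 0.86 after 1 dose and 0.31 to 0.56 after 5. The mean of the 37 genes correlated with the mean of macrophage markers at r = 0.607 after a single dose and 0.263 after 5 doses, with that of pan-leukocyte markers at 0.44 and 0.496, with B cell markers at 0.493 and 0.515 and with T cell markers at 0.507 and 0.252. The values were 0.412 and 0.325 for NK cell, 0.431 and -0.107 for neutrophil and 0.377 and 0.183 for endothelial markers. For plasmacytoid dendritic cell markers they were negative in both regimens, at -0.419 and -0.0649. With markers of the proximal tubule they were -0.155 and 0.215.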

How the data were processed

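Kidney messenger RNA libraries from 12 groups of mice were analysed. Each deposited file holds the raw counts of 1 library by gene symbol, which the authors had not normalized. The submitters' processing notes name, without roles, the tools HTSeq, TopHat2 2.0.13, bcl2fastq 2.17.1.14, DESeq2 and Trimmomatic, and the mouse build GRCm38; a stranded kit was used, per the labels' protocols, with the counter's strand setting not given in the sources. In the deposited counts, a median of 53.1% of reads lay in genes, 22.9% in no feature, 21.7% aligned to several places, 2.28% were not aligned and 0.685% were ambiguous; reads outside genes stayed out of library sizes and tests.

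Of 78 labelled samples 77 had a file, and 1 MCD repeated vehicle sample was not analysed here. A minimum of 1000000 counts in genes left out 5 single-regimen libraries with 2267 to 22029 counts. The 72 used held 8556278 to 42022166 counts. Lanes were read from the file names and covered 1 to 3 in the single and 4 to 8 in the repeated regimen. Labels put 9 PERC and 7 vehicle libraries in the repeated LFD groups, where the series description gives 8 of each. Replicate numbers follow accession order and pair nothing. Nothing in the labels ties libraries to separate animals, so the p-values may reflect technical spread only. Among 203 pairs within groups the lowest chi-square per gene was 6.38, so each pair differed by more than counting error. Each library was taken as 1 replicate.

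Counts were scaled with TMM and tested with edgeR 4.0.16 (R 4.3.3; filterByExpr, robust quasi-likelihood F test, Benjamini-Hochberg adjustment over all genes, threshold 0.05), in 1 fit of 6 groups per regimen and 1 of 12 groups between regimens. The standard error (SE) is the size of the log2 fold change over the square root of F. Shares of all genes are from the main fits, at an adjusted p under 0.05. None is given for counts at an unadjusted p or for altered fits. Levels are CPM with TMM factors over the 72 libraries, and log2 CPM used a prior count of 2. The fits were tested on simulated counts. Alternatives were DESeq2 1.42.0, its size factors, no filter, lane as a covariate, low-depth libraries kept, only the groups compared, and each library left out.

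The 37 genes, their roles, the pathway lists and the cell type markers were chosen with earlier results of these data known, and 4 diet comparisons within PERC libraries were added after values were seen. All called genes of the set are named, up to the 12 with the smallest p (Xaf1 as the remaining one), or the 3 with the smallest p where none was called; 12 of the 37 could be named anywhere as examples, and others among those not passing were named after their values were seen, as were the synthetase genes set side by side across comparisons. Of the pathway and marker lists, only called genes are named, and outside them the 12 genes with the highest mean r. Sequences came from RefSeq, gene places and exons from gencode vM21. A result of the receptor and JAK-STAT list is not reported here.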

Additional observations from a re-analysis of the deposited data

Results flagged for a closer look

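A gap test in groups of 4 to 10 libraries, applied in 11 groups to the 19 genes called in at least 1 comparison and to the mean of the 37 genes, marked 14 of 220 cases in which the highest or lowest library stood far from the others; chance marks about 1 in 20. Low libraries after a single dose were Irgm2 at 27.8 CPM in LFD vehicle replicate 2 (others 43.5 to 48.4), Isg15 at 2.82 CPM in MCD PERC replicate 1 (others 3.93 to 3.98), Psmb8 at 6.09 CPM in LFD PERC replicate 4 (others 8.9 to 9.33) and Oas3 at 0.301 CPM in HFD vehicle replicate 1 (others 0.652 to 0.705). High libraries after a single dose were Gbp2 at 23.9 CPM in HFD vehicle replicate 3 (others 16.6 to 17.4), Ifi27 at 58 CPM in MCD PERC replicate 3 (others 31.6 to 33.4) and Ddx58 at 59.6 CPM in HFD PERC replicate 5 (others 41.9 to 45.7). After 5 doses, HFD PERC replicate 6 was low for both Gbp2 (6.91 CPM, others 15.2 to 26.7) and Cxcl10 (2.03 CPM, others 3.6 to 5.83). Also low were Oasl2 at 8.44 CPM in LFD PERC replicate 8 (others 11.5 to 15), Gbp3 at 9.11 CPM in LFD vehicle replicate 7 (others 12.4 to 14.9) and Psmb9 at 2.53 CPM in HFD vehicle replicate 4 (others 4.16 to 5.21). High ones were Xaf1 at 6.6 CPM in LFD PERC replicate 3 (others 2.98 to 4.36) and Oas3 at 1.42 CPM in LFD vehicle replicate 5 (others 0.279 to 0.55).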

How the results depend on the processing

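Of 32 calls of interferon response genes in the planned comparisons, 18 were kept whichever library was left out, and 0 changed sign. With lane as a covariate the count of called genes became 1 for PERC on LFD after a single dose, 2 for PERC on LFD after 5 doses, 2 and 1 for HFD and MCD with vehicle after a single dose, and 2 and 8 for HFD with PERC after a single and 5 doses. DESeq2 called 1, 1, 3 and 1 for HFD and MCD with vehicle and HFD and MCD with PERC after a single dose, against 0 with edgeR. With the libraries of low depth kept these counts were 1, 1, 2 and 1, and a fit to only the groups compared gave 1 for HFD with vehicle after a single dose. Without the filter on low counts, 3 were called for PERC on MCD and 3 for HFD with vehicle after 5 doses. Leaving out single libraries gave 0 to 3 calls for PERC on LFD after 5 doses, 0 to 3 on HFD, 3 to 6 on MCD, 1 to 5 for HFD with vehicle and 3 to 7 for HFD with PERC after 5 doses, and 0 to 1 for HFD and for MCD with PERC after a single dose. Of the calls named, those of Isg15 and Psmb8 for PERC on MCD were lost with lane as a covariate and, like those of Irgm2 for PERC on HFD, Xaf1 for PERC over the diets, Oasl2 and Ddx58 for HFD and Rtp4 for MCD with vehicle, without the filter on low counts. Fitted to only the groups compared, Mx1 for PERC on HFD, Psmb8 for PERC on MCD and Igtp for MCD with PERC did not pass. The causes were not tested. No paired analysis was possible because replicate numbers only follow accession order. Depth limited Oas3, Mx1, Mx2 and Oas1a, which had 10 or fewer counts in at least 1 library; intervals and floors cover counting error only. The 5 libraries left out for depth lower the number of single-regimen libraries, down to 3 for MCD vehicle, so a gene not passing there is not shown to be unaffected.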
